A study of Mus musculus with 14 samples.

Results

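Wide H3K27me3 peaks, those listed with a width of 2000 bp or more, made up 693 of the 23668 peaks in the deposited differential binding table. H3K27me3, trimethylation of lysine 27 on histone H3, was measured by ChIP-seq in primary hippocampal neurons of mouse embryos (genotype given as WT, CD1 mice of both sexes at embryonic day 17 per the study's methods). The neurons received gapmers, short antisense oligonucleotides that direct the degradation of an RNA, either a control gapmer (labelled NC) or a gapmer against the long non-coding RNA NeuID, in lipid nanoparticles. The day of harvest for ChIP is not given in the sources used here. The labels give 6 control and 6 knockdown ChIP libraries with 1 input library each. The deposited means carry the weights of 6 control and 5 knockdown libraries, and the study's figure caption gives 5 per group. No sorting of the cultures is described, so a mark on a glial gene cannot be placed in a cell type. The table holds 1 mean per group and peak, on a log2 scale of normalised reads, and no value for a single library. Differences between the groups therefore carry no error and no test here, and peaks are not replicates of a condition. The depth of each library is unknown from these values.

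The mark is written by Polycomb repressive complex 2, whose catalytic subunit is EZH2, and it is found on genes that are kept silent in a given cell. Polycomb targets in mammals lie mostly at CpG islands, stretches rich in the dinucleotide CG, and the broadest Polycomb domains cover genes for transcription factors that direct other lineages or other stages of development. In a mature neuron these include the Hox genes, which specify position along the body axis, and the factors that direct muscle, blood, heart or glial fates. The study asked whether the loss of NeuID alters the mark in neurons.

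The wide peaks covered 2298.7 kb, which was 16.5% of the base pairs in all listed peaks, and held 23.3% of the control reads. Their median width was 2719 bp, against 419 bp for the 22975 narrower peaks, and the widest spanned 12729 bp. The limit cut a continuous range of widths. Just inside it were peaks near Cbln1 (2002 bp), Wnt16 (2003 bp) and C1ql1 (2005 bp), with control log2 means of 4.95, 5.60 and 4.95. Just outside were peaks at Begain (1998 bp), Pax7 (1998 bp) and Tbx3 (1996 bp), with control log2 means of 5.95, 5.87 and 6.07. The 3 peaks outside the limit were thus stronger in control than the 3 inside it.

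These 7 stretches are printed because the results below turn on their peaks. Each is the stretch of 200 bases with the most CG within its peak that touches no annotated exon, read from the GRCm38 reference (mm10, the build of the deposited coordinates). The reference is the C57BL/6J strain, so bases of the CD1 cells may differ. Every CG is in capitals.
Peak near Dmrt2, chr19:25665945-25666144, plus strand: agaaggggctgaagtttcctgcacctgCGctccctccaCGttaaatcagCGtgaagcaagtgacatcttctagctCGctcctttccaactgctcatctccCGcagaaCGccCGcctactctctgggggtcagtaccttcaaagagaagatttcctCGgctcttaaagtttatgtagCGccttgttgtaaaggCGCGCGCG
Peak near Sp9, chr2:73263788-73263987, plus strand: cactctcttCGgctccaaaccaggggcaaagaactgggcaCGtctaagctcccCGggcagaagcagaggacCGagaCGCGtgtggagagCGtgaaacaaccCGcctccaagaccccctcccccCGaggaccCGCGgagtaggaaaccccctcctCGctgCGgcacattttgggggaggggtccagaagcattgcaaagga
Peak upstream of Tlx1, chr19:45143547-45143746, plus strand: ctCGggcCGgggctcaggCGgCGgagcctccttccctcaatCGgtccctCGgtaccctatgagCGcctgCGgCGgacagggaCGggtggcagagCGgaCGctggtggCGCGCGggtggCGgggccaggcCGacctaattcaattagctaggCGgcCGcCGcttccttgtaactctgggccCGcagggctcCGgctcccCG
Peak over the Tlx1 start, chr19:45151493-45151692, plus strand: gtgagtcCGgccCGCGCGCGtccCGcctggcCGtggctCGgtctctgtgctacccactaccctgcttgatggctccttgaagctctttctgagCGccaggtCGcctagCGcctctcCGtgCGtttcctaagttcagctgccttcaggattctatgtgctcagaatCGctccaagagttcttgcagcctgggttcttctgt
Peak in Runx1, chr16:92698692-92698891, plus strand: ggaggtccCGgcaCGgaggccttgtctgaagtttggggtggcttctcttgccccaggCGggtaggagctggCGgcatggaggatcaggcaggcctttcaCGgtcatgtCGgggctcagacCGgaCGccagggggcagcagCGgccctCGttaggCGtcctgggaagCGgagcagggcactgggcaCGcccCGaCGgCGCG
Peak over the Lbx1 start, chr19:45231097-45231296, plus strand: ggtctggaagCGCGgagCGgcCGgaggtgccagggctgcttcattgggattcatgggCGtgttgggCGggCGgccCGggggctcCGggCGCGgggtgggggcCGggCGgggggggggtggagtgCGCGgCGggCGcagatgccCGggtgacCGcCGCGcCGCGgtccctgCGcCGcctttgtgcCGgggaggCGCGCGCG
Peak over the Olig2 start, chr16:91225243-91225442, plus strand: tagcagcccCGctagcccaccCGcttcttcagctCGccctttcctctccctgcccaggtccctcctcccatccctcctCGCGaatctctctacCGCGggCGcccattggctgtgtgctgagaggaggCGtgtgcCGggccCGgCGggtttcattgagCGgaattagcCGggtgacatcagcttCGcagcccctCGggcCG
The stretches near Dmrt2 and Sp9, in peaks with the lowest knockdown minus control differences, held 13 CG each. The stretch in the peak upstream of Tlx1 held 23 and that in the peak over the Tlx1 start 14. The whole peak over the start was still the richer, with 4.39 CG per 100 bp against 2.17. The stretch in the peak over the Lbx1 start held 30 CG. The one in the Runx1 intron held 17, as did the one in the peak over the Olig2 start. No printed stretch contains a gene start, because none touches an exon. When every peak was tiled in steps of 200 bases, CG occurred at least once in 95.5% of the 11151 tiles of wide peaks and in 87.3% of the 46931 tiles of narrower peaks. At least 10 CG were present in 31.8% of the wide tiles and in 12.9% of the narrower ones. CG reads the same on both strands. The printed stretches are the richest exon-free parts of their peaks and do not stand for the rest. Parts of the peaks that touch an exon were not searched.

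Over whole peaks, the observed number of CG relative to that expected from base composition had a median of 0.527 in wide peaks and 0.213 in narrower peaks. It reached 0.5 or more in 55.8% of wide peaks and in 12.6% of narrower ones. The GC content had medians of 54.7% and 49.0%. The share of repeat sequence did not set the classes apart, with medians of 10.3% and 10.7%.

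The wide peaks lay mainly at gene starts. A gene start, the 5′ end of an annotated gene of any type (GENCODE M21), fell inside 334 of the 693 wide peaks, or 48.2% (95% Wilson interval 44.5% to 51.9%, which covers counting error over peaks only), against 4.94% of narrower peaks. A further 58 wide peaks (8.37%) lay within 1 kb of a start, against 8.92% of narrower peaks. Coding exons away from any start held 14.6% of wide and 7.05% of narrower peaks. Introns held 8.66% of wide peaks and 31.2% of narrower ones, and intergenic sequence 14.7% and 43.8%. A longer interval covers a start or an exon more easily, and the part of width alone in these shares was not tested. Counted by genes, 341 of 22028 protein-coding genes (1.55%) had a wide peak within 1 kb of their start, and 2146 (9.74%) had a listed peak of any width there.

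**Figure D1:**
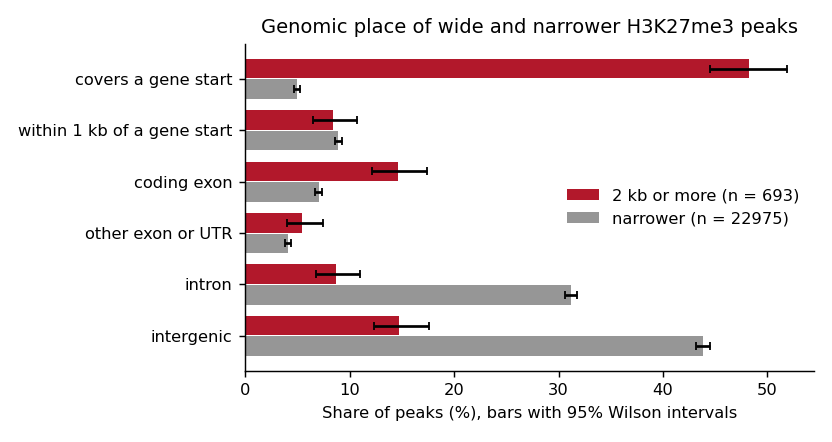
Share of peaks (%) in each genomic place, for the 693 peaks of 2 kb or more (red) and the 22975 narrower peaks (grey), with 95% Wilson intervals. Gene starts lay inside 48.2% of wide and 4.94% of narrower peaks, while introns and intergenic sequence held most of the narrower peaks.

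The genes were largely those of developmental transcription factors. By the nearest protein-coding start, 481 wide peaks (69.4%) fell in 1 of 7 transcription factor groups and named 227 genes, against 19.7% of narrower peaks. Homeobox genes outside the Hox clusters were the largest group, with 202 wide peaks at 91 genes, followed by 97 peaks at 52 zinc finger and other transcription factor genes and 76 peaks at 35 Hox cluster genes. Forkhead genes had 38 wide peaks, T-box genes 32, basic helix-loop-helix genes 31 and Sox genes 5. Outside transcription factors, 29 wide peaks lay at channel, receptor and transporter genes, 25 at genes of developmental signals, 10 at adhesion, guidance and matrix genes and 2 at inhibitors of cyclin-dependent kinases. The remaining 146 (21.1%) belonged to none of these groups. Named by the nearest start of any gene type instead, which puts many peaks on antisense and other non-coding genes, 339 wide peaks fell in the transcription factor groups and 298 in no group. Of all listed peaks assigned to Hox cluster genes, 32.9% were wide, against 16.5% for T-box, 11.9% for forkhead and 1.8% for channel, receptor and transporter genes, and 0.945% for genes in no group.

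The widest peak overlapped Hoxd3 and the coding gene model Gm28230 (chr2:74729722-74742450), with a control log2 mean of 8.69 and a knockdown log2 mean of 8.45. The widest over a coding start covered Lbx1 (chr19:45225234-45236922, 11689 bp), a homeobox factor of spinal interneurons and muscle precursors, at 8.66 in control and 8.48 in knockdown. The peak at Hoxc12 also overlapped Hotair, the HoxC non-coding RNA to which NeuID was compared in the study, and was 11257 bp wide at 8.50 and 8.40. Others of the 10 widest lay at Tlx3, Hmx1 and Lhx5 (homeobox factors), Wt1 (a zinc finger factor of kidney and gonad), Sox14 and, 25870 bp from its start, Tbx5, a T-box factor of heart and forelimb. Of these 10, 9 were lower in knockdown, by at most 0.25, and the Sox14 peak was higher by 0.09. Of the 10 peaks with the highest control means, 7 were also among the 10 widest, and all 10 were lower in knockdown, by 0.05 to 0.58. Picking peaks by a high control mean favours a lower knockdown mean, so this direction is a description, as is that of the weakest peaks in control.

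The wide peaks were strong and the strength ran with width. Their control log2 means had a median of 6.37, quartiles of 6.01 and 6.83 and a range of 4.43 to 8.69, while the narrower peaks had a median of 2.95. On the linear scale the medians were 82.7 and 7.70 normalised reads. The Spearman correlation of width with the control log2 mean was 0.857 over the 693 wide peaks, which share libraries and in which a longer interval collects more reads. Per kb of peak, the control level had a median of 29.5 reads (quartiles 25.5 and 33.4) in wide peaks and 18.5 in narrower ones, and its correlation with width within the wide peaks was 0.268. The highest control level per kb among the 10 strongest peaks, 46.5 reads, was at the peak over Hoxa10, 443 bp from the Hoxa9 start (chr6:52231532-52238492). No wide peak had a log2 mean at 0 in either group, whereas 777 narrower peaks were at 0 in control and 794 in knockdown.

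The weakest wide peaks in control lay in an intron of Runx1 (4.43), a blood-lineage factor, at the Zbtb42 start (4.84), near Cbln1 (4.95), a synaptic organiser of cerebellar granule cells, near C1ql1 (4.95) and in Prdm6 (4.99). Their widths ran from 2002 to 2088 bp. Of these 5, those at Runx1, Zbtb42, C1ql1 and Prdm6 had higher knockdown means and the one near Cbln1 a lower one.

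The wide peaks had, on the whole, slightly lower means in the knockdown. The difference of knockdown minus control on the log2 scale had a median of -0.11, with quartiles of -0.37 and 0.12 and a range of -2.11 to 1.49. The narrower peaks had a median of -0.01 with quartiles of -0.83 and 0.80, and all listed peaks a median of -0.02. Narrower peaks adjacent to a wide peak, with a gap under 5 kb (905 pairs), had a median of -0.135 and quartiles 1.079 apart. A median below 0 was thus not particular to the wide peaks. Differences below 0 were found in 436 wide peaks (62.9%), against a background of 50.8% of all listed peaks. The summed knockdown reads of the wide peaks were 91.8% of the summed control reads, and those of the narrower peaks were 98.7%. This shift of the median was small beside the spread of the wide peaks among themselves, whose quartiles lay 0.49 apart.

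Large differences were rarer among wide peaks than over the table. A difference of -1 or lower was found in 19 wide peaks (2.74%), where the background over all listed peaks was 20.6%, and one of 1 or higher in 4 (0.577%), where the background was 20.4%. At a limit of 0.5 there were 104 lower (15.0%, background 33.3%) and 35 higher (5.05%, background 32.2%). The backgrounds are dominated by narrower and weaker peaks. Between the 5th and 95th percentile of wide-peak strength, 11 of 623 wide peaks were at -1 or lower and 3 at 1 or higher. Of 213 narrower peaks in that range, 4 (1.88%) and 2 (0.939%) were. At the limit of 0.5, 11.7% of these narrower peaks were lower and 10.8% higher, where all 693 wide peaks had 15.0% and 5.05%. Against narrower peaks of like strength, differences of -0.5 or lower were thus not rarer in wide peaks. These narrower peaks were the weaker in control, with a median log2 mean of 5.73, where all 693 wide peaks had 6.37.

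Against width, the spread narrowed while the median stayed within a small range. The 262 peaks of 2000 to 2499 bp had a median difference of -0.12, with 12 at -1 or lower and 3 at 1 or higher. The medians were -0.09 for 150 peaks of 2500 to 2999 bp, -0.10 for 147 of 3000 to 3999 bp, -0.16 for 87 of 4000 to 5999 bp and -0.10 for 47 of 6000 bp or more. In the last band no peak reached 1 in either direction, the quartiles lay 0.248 apart, and 74.5% were below 0. Median control means rose along these bands, from 63.2 normalised reads at 2000 to 2499 bp to 255 at 6000 bp or more. The part of read number in the narrowing was not tested. Among narrower peaks the median was 0.18 below 300 bp, 0.00 from 300 to 499 bp, -0.11 from 500 to 999 bp, -0.06 from 1000 to 1499 bp and -0.10 from 1500 to 1999 bp.

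**Figure D2:**
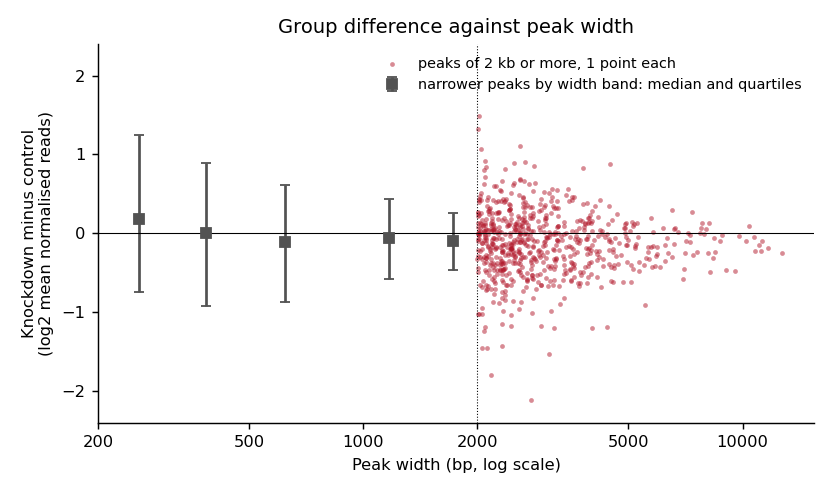
Knockdown minus control difference (log2 mean normalised reads) against peak width (bp, log scale). Each red point is 1 of the 693 wide peaks, and the grey squares with bars give medians and quartiles of 5 bands of narrower peaks. Red points gather slightly under 0 and scatter less as width grows.

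The gap between wide and narrower peaks of like strength varied from bin to bin. Between equally weighted log2 means of 5 and 5.5, the 30 wide peaks had a median difference of -0.27 and the 442 narrower peaks one of -0.05, with interquartile ranges of 0.842 and 0.784. From 5.5 to 6, the 165 wide peaks had a median difference of -0.12, an interquartile range of 0.550 and 61.8% below 0. The 195 narrower peaks of that strength had a median of -0.05, an interquartile range of 0.527 and 53.3% below 0. From 6 to 6.5 the order turned, with -0.10 in 236 wide and -0.18 in only 21 narrower peaks. Above that, wide peaks had medians of -0.09 (6.5 to 7), -0.16 (7 to 7.5) and -0.14 (7.5 to 8), and of the 18 strongest 83.3% were below 0 with a median of -0.11. Between the 5th and 95th percentile of wide-peak strength, log2 means of 5.51 and 7.8, the 623 wide peaks had a median of -0.11. The 213 narrower peaks of that range had a median of -0.05 and a summed ratio of 97.7%. Only the range was shared, and the narrower peaks lay mostly at its weak end. Over the full strength range of the wide peaks, 4.79 to 8.58, the 907 narrower peaks had a median of -0.04.

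**Figure D3:**
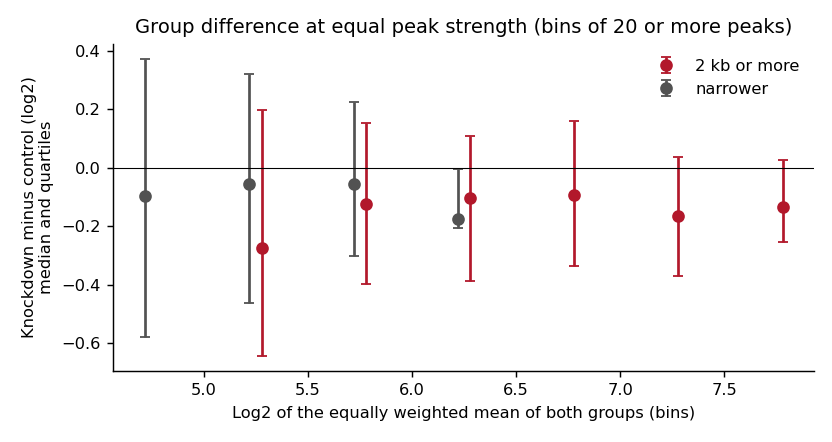
Median and quartiles of the knockdown minus control difference (log2) in bins of the equally weighted mean of both groups, for wide (red) and narrower (grey) peaks, in bins of 20 or more peaks. All plotted medians lie under 0 in both classes, and the bars of the classes overlap in every shared bin.

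The median difference of the wide peaks varied with their place, by less than the spread within each place. The 334 wide peaks that covered a gene start had a median of -0.10 and a summed knockdown to control ratio of 93.2%. The 102 intergenic wide peaks had a median of -0.23, a ratio of 85.6%, and 70.6% below 0, with 6 at -1 or lower and none at 1 or higher. The 60 intronic ones had a median of -0.19 and a ratio of 87.6%, and the 101 in coding exons a median of -0.08 and a ratio of 94.6%. The 58 within 1 kb of a start had -0.10 and 92.1%, and the 38 in other exons -0.155 and 89.6%. Within a place the quartiles lay from 0.388 (other exons) to 0.645 (introns) apart. Narrower intergenic peaks had a median of -0.02 and a ratio of 97.8%. CG content ran alongside place. The lowest quartile of wide peaks by observed to expected CG had a median difference of -0.17 and a summed ratio of 87.5%, and the highest quartile had -0.08 and 96.0%. Over the 693 wide peaks the Spearman correlation of this CG measure with the difference was 0.144. Place, CG content and strength are linked within these peaks, and their separate parts were not tested.

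The lowest differences belonged to peaks that were of usual density in control and sparse in knockdown. The lowest was an intergenic peak 4422 bp from the start of Dmrt2 (chr19:25665220-25667989), a DM-domain factor of somite development, with a control log2 mean of 6.20 and a knockdown log2 mean of 4.09. An intergenic peak 5967 bp from the start of Sp9 (chr2:73263788-73265958), a zinc finger factor of forebrain interneurons, had 6.23 and 4.43. These are the peaks of the first stretches printed above. Next came a peak 7703 bp from Foxb1 at 6.70 and 5.17, an intergenic peak 3811 bp from Fezf1 at 5.73 and 4.28, one in Foxf2 at 6.09 and 4.64 and an intergenic peak 5684 bp from En2, a midbrain and hindbrain homeobox factor, at 6.28 and 4.86. The start of Cmtm7, a membrane protein gene outside the groups, had 5.88 and 4.64. A peak at the HoxB end near Gm53, 13359 bp from Hoxb9, had 6.57 and 5.36. The intergenic peak upstream of Tlx1, a homeobox factor of spleen and sensory neurons, had 6.97 and 5.76. The peak over the start of Gata4, a heart and endoderm factor, had 7.22 and 6.04.

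The highest differences belonged to peaks that were sparse in control. The peak in the Runx1 intron (chr16:92698433-92700454) had a control log2 mean of 4.43 and a knockdown log2 mean of 5.92. Intronic peaks of Prdm6 and of Sim1, a hypothalamic factor, had 4.99 and 6.32, and 5.10 and 6.16. A peak 3604 bp from the Foxf2 start had 5.47 and 6.57. A peak 100 bp from the start of Slc6a2, the noradrenaline transporter, had 5.44 and 6.36, and a peak over the Nkx2-2 antisense gene start had 5.44 and 6.34. The peaks at the starts of Nags, of urea metabolism, and of Tlx1 had 5.23 and 6.13, and 6.58 and 7.45. The last were in coding exons of Jph2, a junctional protein of heart muscle, at 5.67 and 6.53, and of Gfi1, a blood-lineage repressor, at 5.09 and 5.93.

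In reads per kb, the 10 lowest peaks ran from 25 to 34.6 in control and from 6.16 to 15 in knockdown. The 10 highest ran from 10.7 to 21.4 in control and from 28 to 39.7 in knockdown. The lowest set had medians of 32.2 in control and 12.1 in knockdown, and the highest set 16.5 and 33.9. All wide peaks in control had a median of 29.5 and an upper quartile of 33.4 reads per kb. The higher group of the lowest set thus lay under that quartile by its median, and that of the highest set lay above it. Among the lowest, 5 peaks were intergenic and 2 covered a gene start, whereas none of the highest was intergenic and 3 covered one. Of the 10 highest, 9 were under 3000 bp, as were 6 of the 10 lowest. The peaks were picked by this difference, so the gap between the groups is a description.

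**Figure D4:**
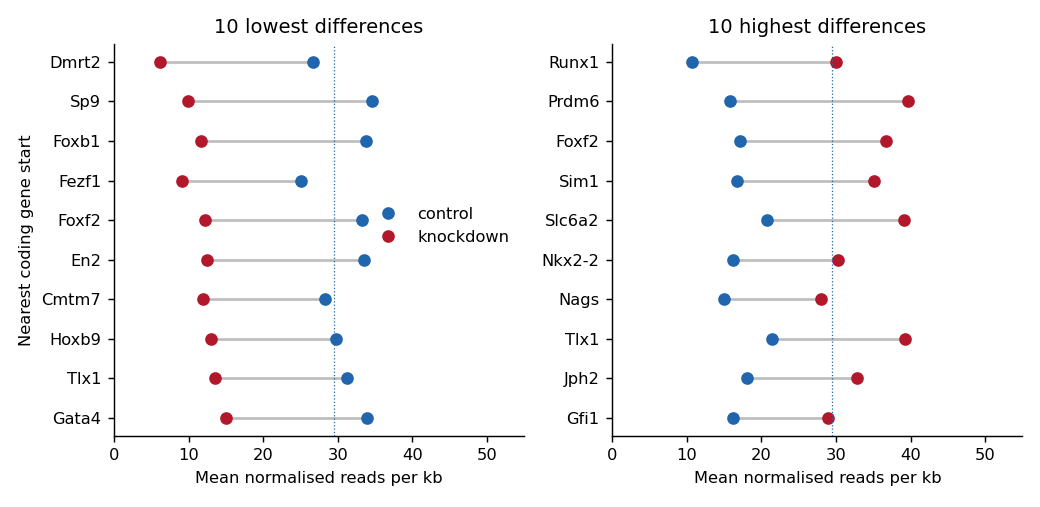
Mean normalised reads per kb in control (blue) and knockdown (red) for the 10 wide peaks with the lowest and the 10 with the highest difference, named by nearest coding start. The dotted line is the control median of all wide peaks, 29.5, which lies among the blue points on the left and under most of the red points on the right.

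By gene group, medians of the difference lay between -0.41 and 0.01 in the groups with 5 or more wide peaks. Hox cluster genes had a median of -0.15 with 52 of 76 peaks below 0, other homeobox genes -0.15 with 134 of 202, forkhead genes -0.16 with 25 of 38 and T-box genes -0.16 with 23 of 32. The narrower peaks of these groups, in the same order, had medians of -0.18, -0.14, -0.16 and -0.20. By the nearest start of any gene type, 46 peaks named for Hox cluster genes had a median of -0.06 and 19 named for T-box genes one of -0.06. Zinc finger and other transcription factor genes had -0.10 with 61 of 97, and basic helix-loop-helix genes -0.11 with 17 of 31. Their narrower peaks had -0.10 and -0.04. Over the 7 transcription factor groups together the median was -0.14 in the 481 wide peaks and -0.13 in the narrower peaks of the same groups. The wide peaks in no group had -0.07, with 85 of 146 below 0. Genes of developmental signals stood at 0.01, with 12 of 25 below 0, where the background was 50.8% of all listed peaks.

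Within the signal genes, the peak over the start of Wnt1, a midbrain patterning ligand, was the widest, at 6.90 in control and 7.32 in knockdown. The starts of Wnt6 and Wnt3 had 6.76 and 6.54, and 6.88 and 6.63. The Igf2 start, an imprinted growth factor gene, had 7.10 and 6.58. At transmitter genes, the wide peak over the starts of Slc18a3, the vesicular acetylcholine transporter, and Chat, which makes acetylcholine, had 7.36 and 7.43, while the adjoining peak in Chat coding exons had 6.87 and 6.32. The start of Slc32a1, the vesicular transporter of GABA and glycine, had 6.97 and 6.56, and that of Slc6a5, the neuronal glycine transporter, 6.73 and 6.85. The Cdkn2a peak had 6.29 and 6.68 and the Cdkn1c peak 5.79 and 5.67, both genes for cell cycle inhibitors.

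Of 51 marker genes of cell types that hippocampal cultures could hold, 5 had a wide peak within 1 kb of their start and 15 had a listed peak of any width there, where 1.55% and 9.74% of all coding genes did. Among 15 neuronal markers only Gad2, which makes GABA in inhibitory neurons, had a wide peak (5.64 in control, 5.57 in knockdown), and 4 had a listed peak of any width. None of 10 astrocyte markers had a listed peak, a count near what the 9.74% over all coding genes would give. Of 10 markers of the oligodendrocyte lineage, Olig2 and Nkx2-2 had wide peaks and 5 had a listed peak. The Olig2 start, a lineage factor of oligodendrocytes and motor neurons, had 6.60 and 6.41. The 3 wide peaks nearest to Nkx2-2 differed in direction, with differences of 0.90, -0.20 and 0.40. Of 8 endothelial markers, Flt1 (6.39 and 6.02) and Sox17 (6.92 and 6.49 over its start, 7.25 and 6.84 in its coding exon) had wide peaks, and none of 8 microglial markers did. These are histone marks and not RNA levels, and they do not measure the cell makeup of the cultures.

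Wide peaks often stood side by side. With gaps under 20 kb joined, they formed 380 stretches, of which 247 held 1 wide peak and 133 held 2 or more, with 446 wide peaks (64.4%) in the latter. The HoxC stretch held 24 wide peaks (97.9 kb), HoxA 22 (97.0 kb), HoxD 19 (74.0 kb) and HoxB from Hoxb9 to Hoxb1 16 (80.7 kb). Their median differences were -0.15, -0.08, -0.14 and -0.35, with 15, 15, 12 and 13 peaks below 0. The separate Hoxb13 stretch held 8, with a median of -0.44. Outside the Hox clusters the stretches at Gata4 and Tbx3 held 7 each (medians -0.30 and -0.13) and that at Zic1, a zinc finger factor of the dorsal neural tube and cerebellum, held 6, of which 2 were below 0 (median 0.17). Chromosomes differed in how many of their peaks were wide, from 0.303% on X, with 2 of 660, to 4.42% on chromosome 15, which carries HoxC.

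Neighbouring wide peaks shared a direction about as often as distant ones. Of 136 pairs of consecutive wide peaks less than 1 kb apart, 62 had both differences below 0, 14 both at or above 0, and 60 opposite signs. The same sign was thus found in 55.9% of these pairs, against 52.8% of 322 consecutive pairs 100 kb or more apart. The Pearson correlation of the differences was -0.058 in the near pairs and -0.024 in the far ones, both across peaks that share libraries. Of 149 coding genes with 2 or more wide peaks, 49 had all of them below 0, 11 had none below 0 and 89 had both signs.

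The loci with several wide peaks show both patterns. At Tlx1 the 5 wide peaks had, from upstream to downstream, differences of -1.20, -0.71, 0.87, -0.09 and -0.57, and the peak over the start was 287 bp from its upstream neighbour. At Foxf2, a forkhead factor of mesenchyme, the 5 were -0.63, 1.10, 0.15, -0.25 and -1.45. At Lmx1a, a factor of midbrain dopamine neurons, the peak over the start had 0.49 and the peak 172 bp away had -1.14. At Gdf7, a ligand of the neural roof plate, peaks 181 bp apart had 0.54 and -0.69. By contrast, all 5 wide peaks of Nkx6-1, a ventral neural tube factor, lay between -0.61 and -0.12, and all 4 of Lbx1 between -0.37 and -0.18. None of the 3 wide peaks of Irx3 or of Nkx2-5, a heart factor, was below 0, with ranges of 0.09 to 0.40 and 0.05 to 0.08. At Gata4 the start peak had -1.18 and its nearest wide neighbour, 1080 bp away, 0.06.

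**Figure D5:**
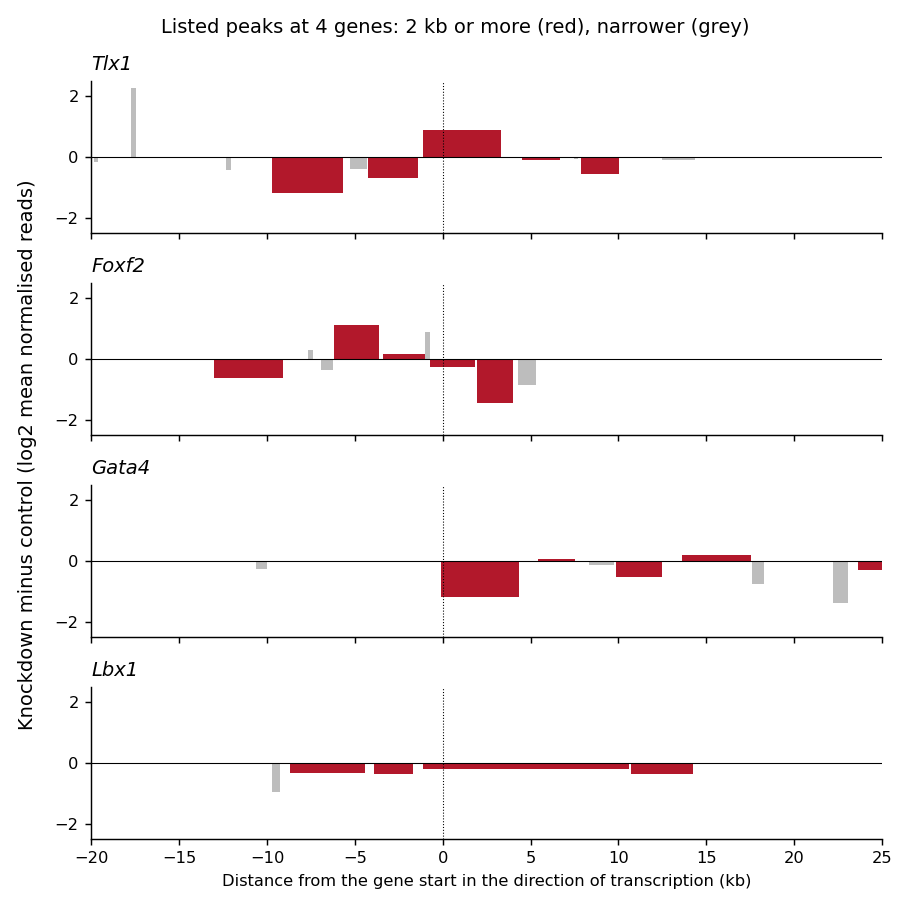
Knockdown minus control difference (log2 mean normalised reads) of every listed peak near the starts of Tlx1, Foxf2, Gata4 and Lbx1, against distance from the start in the direction of transcription (kb), with wide peaks in red and narrower ones in grey. Bar width is peak width. Neighbouring red bars point in opposite directions at Tlx1 and Foxf2 and the same way at Lbx1.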

How the data were processed

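The authors' methods give NEBNext Ultra II libraries, single-end reads of 50 bases, alignment with Bowtie2, broad peaks called by MACS2 at a q limit of 0.1 and comparison of the groups with DiffBind and its DESeq2 option, on mm10 (GRCm38). Versions and the normalisation behind the means are not given in the sources used here. The deposited values are log2 means of normalised reads per peak, 1 for control, 1 for knockdown and 1 overall. The overall mean weighted the control mean by 0.545, the share of 6 libraries in 11. The means thus carry the weights of 6 control and 5 knockdown libraries. The labels give 6 in each group, and the study's figure caption for this ChIP-seq gives 5 per group. Which knockdown library was left out is not given in the sources used here. The authors' own fold changes, p-values and false discovery rates stand in the same table and were not used.

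Peaks of 2000 bp or more were taken as wide. The difference was the knockdown minus the control log2 mean. Levels per kb and summed reads used the means on the linear scale. Without values per library no test was run, and counts, medians and quartiles are given beside those of narrower or all peaks. Strength was matched only by range or bin, on the log2 of the equally weighted mean of both groups. Each peak was given 1 place, in the order gene start inside, start within 1 kb, coding exon, other exon, intron, intergenic, from GENCODE M21 gene ends on GRCm38. Gene groups were set by symbol on the nearest protein-coding start, so a peak may lie far from the gene that names it. Named peaks were the 10 widest, the 10 highest in control, the 10 lowest and 10 highest differences, the 5 weakest in control, the 3 nearest the limit on each side, the 4 widest of each group, and those of markers and of genes with 3 or more wide peaks, some of which are not reported here; the pairs at Lmx1a, Gdf7 and other neighbours were chosen after their values were seen. Members and lists were chosen with earlier results of these data known. Computation used Python 3.11.15, pandas 2.3.3, numpy 2.4.6, SciPy 1.17.1 and pysam 0.24.0, tested on simulated peaks.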

Additional observations from a re-analysis of the deposited data

How the results depend on the processing

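The number of wide peaks was 693 at 2000 bp, 1149 at 1500 bp and 281 at 3000 bp. The median difference of the wide peaks stayed below 0, from -0.13 to -0.09, with other width limits, after subtraction of the median over all peaks, on autosomes and with 1 value per gene. The gap between wide and narrower medians was -0.0999 against all narrower peaks, -0.0586 against the 213 narrower peaks between the 5th and 95th percentile of wide-peak strength, -0.0561 with wide peaks held to that range too, -0.0678 against narrower peaks in the full strength range of the wide ones (these last settings chosen after seeing the data) and -0.0372 against narrower peaks of 1 kb or more. The counts of wide peaks beyond a difference of 1, 19 lower and 4 higher, became 104 and 35 at 0.5. The median control level of 29.5 reads per kb was 28.3 for the mean of both groups. The share at a promoter, 56.6% with a start of any gene type within 1 kb, was 48.6% for coding starts, 48.2% for a start inside the peak and 82.3% within 5 kb. The gap between intergenic and start-covering wide peaks, -0.13, ran from -0.15 to -0.10 at other width limits and in strength ranges, alternatives chosen after seeing the data. So was the naming of groups by the nearest start of any type, which put 339 wide peaks in transcription factor groups in place of 481 and 298 in none of the groups in place of 146, and by any overlapped coding gene, which gave 495. No paired analysis was possible because the table holds only group means. Leaving out a library was not possible for the same reason, and the spread between replicates behind every difference is unknown. Weak peaks limit the comparison with narrower ones.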
